A study of Mus musculus with 24 samples.

Results

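The genes described here are 10 transcription factors and effectors of the ATF4-CHOP branch of the integrated stress response: Atf4, Atf5, Atf3, Ddit3, Cebpb, Cebpg, Trib3, Nupr1, Jdp2 and Vldlr. They were chosen by name from the 39396 genes of the deposited count table, with the genotype differences in these libraries known, so those differences are given as a description. All 10 members were present and passed the filter on low counts. RNA-seq of polyadenylated transcripts was made from the left ventricle of mice, in 24 libraries, 6 in each of 4 groups: controls and DKO mice, each labelled day 1 or day 7 of age. In DKO mice the cardiomyocytes lack Rhot1 and Rhot2, which encode the mitochondrial transport GTPases Miro1 and Miro2, by a deletion made in the embryo. The labels name no Cre driver and give the control genotype as "control" without its alleles. The libraries were labelled as cardiomyocyte while the protocol describes ventricular tissue, so RNA of other cells was included, and fewer cells of a type cannot be told apart from less RNA per cell. No label says that the libraries came from separate animals, so the p-values reflect library-to-library spread, which may be technical.

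When eIF2alpha is phosphorylated, most translation slows while Atf4 mRNA is translated more, and ATF4 protein then raises the transcription of amino acid and stress genes. ATF4 binds DNA as a dimer with C/EBP proteins such as C/EBP gamma, at composite C/EBP-ATF elements. Ddit3 encodes CHOP, a factor of the same bZIP class that ATF4 induces, and Atf5 encodes a related factor with a role in the mitochondrial unfolded protein response. Because ATF4 is controlled largely in translation, its mRNA level does not measure the protein, and only mRNA was measured here.

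Library totals ran from 30318018 to 45806171 counts at labelled day 1 and from 17334498 to 30453874 at labelled day 7, so counting error was larger for weakly expressed members at labelled day 7. Of the targeted genes, Rhot1 reached 129 to 173 CPM (counts scaled to library size, here with TMM factors) in labelled day 1 controls and 107 to 137 in DKO libraries, with DKO library 79 above control library 13. In the labelled day 7 groups it reached 144 to 164 CPM in controls and 123 to 151 in DKO libraries, and Rhot2 was listed at 0 counts in every library, so it checks no label. Ventricular cardiomyocyte markers were present in every library, with a summed level of 47510 CPM or more, and fibroblast, endothelial and macrophage markers were present as well. The age labels were used as given, although 5 genes known to be high in the fetal heart or to decline after birth (H19, Igf2, Tnni1, Myh7 and Igf2bp3) were all higher in controls at labelled day 7, Myh7 by 2.28 on the log2 scale. The age labels may therefore be exchanged, and if they are, every direction by labelled age given here turns. DKO library 79 stood apart in the members and in immediate early genes, so labelled day 1 values are also given without it. Y-linked transcripts were present in 6 of 6 libraries of each labelled day 1 group and in 2 of 6 of each labelled day 7 group.

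Promoter sequence was examined because ATF4 acts through a short element, whose core was taken as TTGCATCA or its reverse complement TGATGCAA. Among the 250 bases before the start sites of RefSeq genes (build GRCm38.p6), 0.791% of 32851 promoters held this core, in 0.918% of 27025 genes. It occurred for 4 of the 10 members, Atf3, Nupr1, Jdp2 and Vldlr, in 4 of their 14 annotated promoters. The stretches around the core are shown 5′ to 3′ on the strand of the gene, with the core in capitals, because they are the members whose promoters hold it exactly.
Atf3: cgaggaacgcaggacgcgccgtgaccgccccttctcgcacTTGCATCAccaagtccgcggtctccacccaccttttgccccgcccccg
Nupr1: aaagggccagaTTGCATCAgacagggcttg
Jdp2: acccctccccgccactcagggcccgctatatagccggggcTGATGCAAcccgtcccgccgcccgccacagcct
Vldlr: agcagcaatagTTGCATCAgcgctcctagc
These lie at chr1:191183396-191183483 on the minus strand for Atf3 and at chr7:126625562-126625591 on the minus strand for Nupr1. The Jdp2 stretch lies at chr12:85599343-85599415 and the Vldlr stretch at chr19:27216809-27216838, both on the plus strand. The Nupr1 and Vldlr stretches also lie in annotated exons of their own genes (GENCODE M21), since another transcript starts upstream. In Atf3 and Nupr1 the core began 110 bases before the start, in Jdp2 it lay 33 bases before 1 of 3 starts in the reverse orientation, and in Vldlr it lay 200 bases before 1 of 2 starts. A looser form, TTNCATCA on either strand, occurred in 3.45% of all promoters and in the promoters of the same 4 members. The cyclic AMP response element TGACGTCA, in 1.55% of promoters, was found in no member promoter. An AP-1 site TGANTCA, in 6.75%, was found only before Ddit3 among the members, and the C/EBP pattern TTGCNNAA, in 9.56%, only before the other start of Vldlr. The windows of Atf4, Atf5, Cebpb, Cebpg, Ddit3 and Trib3 held no exact core. Trib3 had the largest genotype difference of the members at both ages with no core in its window. Nupr1, with a core, had the next largest at both ages, 2.02 ± 0.29 (SE) and 3.62 ± 0.23 on the log2 scale. Jdp2 had a core and a difference of 0.03 ± 0.20 (SE) on the log2 scale at labelled day 1. A relation between the core and the genotype difference was not tested. Elements outside the 250 bases or with other letters would be missed, so no conclusion is drawn from a window without a match. A match describes letters in a window and not binding, and the build differs from the GRCm39 named in the submitters' processing notes.

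Atf4 mRNA was higher in every DKO library than in every control of the same labelled age. Labelled day 1 controls ran from 23.6 CPM, with a median of 33.4, to 35.4, and the DKO libraries from 35.5, with a median of 48.1, to 60.9. Labelled day 7 controls ran from 22.2 through a median of 27.8 to 33.4 CPM and the DKO libraries from 37.8 through 47.6 to 60.5. The groups were separated by a narrow gap at labelled day 1, where DKO library 79 lay just above the highest control, and by a wider one at labelled day 7. Group means were 30.9 ± 5.01 and 48.3 ± 8.28 CPM at labelled day 1 and 27.5 ± 4.25 and 48.6 ± 7.94 at labelled day 7 (SD, n = 6 each). Genotype differences on the log2 scale were 0.64 ± 0.13 (SE) at labelled day 1 and 0.81 ± 0.12 at labelled day 7.

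Atf5 differed by more than Atf4, with a smaller spread at labelled day 7 than at labelled day 1. Control libraries ran from 6.13 CPM, with a median of 9.25, to 13.4 at labelled day 1, and DKO libraries from 22.5 through 27.8 to 38.1. Atf5 in labelled day 7 controls lay between 7.83 and 9.59 CPM around a median of 8.69, and in DKO libraries between 27.1 and 33.9 around 31.3. The groups did not overlap at either age, and the lowest DKO library had more Atf5 than any control of either age. These amounted to log2 differences of 1.59 ± 0.17 at labelled day 1 and 1.82 ± 0.09 at labelled day 7.

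Ddit3, the gene of CHOP, differed by about as much as Atf4. Controls labelled day 1 ran from 18.1 through 23.9 to 29.99 CPM, and the DKO libraries from 31.7 through 40.2 to 50.3. Controls labelled day 7 ran from 12.8 through 17.9 to 20.9 CPM and the DKO libraries from 27.1 through 29.6 to 36.2. Within each age the groups did not overlap, but 3 labelled day 1 controls had as much Ddit3 as the lowest labelled day 7 DKO library. On the log2 scale Ddit3 differed by 0.72 ± 0.15 at labelled day 1 and 0.80 ± 0.12 at labelled day 7. In the GENCODE M21 annotation, 10.9% of the exonic bases of Ddit3 lie in exons of other entries, and the handling of such reads is not given in the sources used here.

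Trib3, a pseudokinase gene induced by ATF4 and CHOP whose product can in turn restrain ATF4 activity, had the largest difference of the 10 members. Labelled day 1 controls ran from 2.82 through 4.14 to 5.85 CPM, and the DKO libraries from 11.8 through 39.9 to 71.9. Labelled day 7 controls lay between 2.82 and 3.65 CPM around a median of 2.94, and the DKO libraries between 34.8 and 102 around 59.4. Controls were close to each other, while the DKO libraries spread 6.10-fold from lowest to highest at labelled day 1 and 2.94-fold at labelled day 7. Its log2 difference was 3.30 ± 0.36 at labelled day 1, or 9.87-fold, and 4.37 ± 0.25 at labelled day 7, or 20.7-fold.

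Nupr1, which encodes a small stress-induced chromatin protein, was next in size. The labelled day 1 controls ran from 4.96 through 7.28 to 10.1 CPM and the DKO libraries from 10.6 through 29.9 to 46.4. The labelled day 7 controls ran from 1.37 through 2.15 to 2.81 CPM and the DKO libraries from 16.98 through 24.9 to 39.2. DKO levels overlapped between the ages, whereas every labelled day 7 control lay below every labelled day 1 control. Nupr1 thus had a log2 difference of 2.02 ± 0.29 at labelled day 1, or 4.07-fold, and 3.62 ± 0.23 at labelled day 7, or 12.3-fold.

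Cebpg, a short bZIP protein that pairs with ATF4, had separate genotype groups at labelled day 7 and overlapping groups at labelled day 1. Labelled day 7 controls ran from 7.59 through 10.7 to 11.6 CPM and DKO libraries from 12.7 through 16.1 to 18.99. The labelled day 1 controls, from 11.8 through 14.5 to 18.5 CPM, and the DKO libraries, from 13.6 through 16.3 to 18.4, overlapped over most of their range. Cebpg differed by 0.12 ± 0.12 on the log2 scale at labelled day 1 and by 0.63 ± 0.11 at labelled day 7.

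Vldlr, a lipoprotein receptor gene that ATF4 can induce, had small differences beside those of Trib3 and Nupr1. Its level ran from 154 through 187 to 207 CPM in labelled day 1 controls, and the DKO libraries lay between 217 and 229 around a median of 220. It ran from 85.5 through 117 to 158 CPM in labelled day 7 controls and in the DKO libraries from 130 through 168 to 205. The groups were separate at labelled day 1, where the DKO libraries varied by 1.95% (coefficient of variation), and overlapped at labelled day 7, where 3 of 6 DKO libraries lay above the highest control. Its log2 difference was 0.26 ± 0.06 at labelled day 1 and 0.54 ± 0.15 at labelled day 7. Its place against the threshold depended on the fit: the labelled day 1 call was lost with atrial genes as a covariate (0.18) or with all 24 libraries in 1 fit (0.27), and the labelled day 7 difference was called by DESeq2 (0.55), by the fit of all 24 libraries (0.55) and without control library m1101 (0.65).

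Atf3, a bZIP factor of the stress and immediate early response, had no stable genotype difference. Control libraries labelled day 1 ran from 17.5 through 25.6 to 92.3 CPM and the DKO libraries from 29.0 through 55.8 to 268. Control libraries labelled day 7 ran from 5.21 through 22.7 to 76.2 CPM and the DKO libraries from 8.39 through 20.97 to 56.3. The groups overlapped at both ages, and 1 library stood far above the others in 3 of the 4 groups. On the log2 scale Atf3 differed by 1.34 ± 0.57 at labelled day 1 and by -0.35 ± 0.66 at labelled day 7, and neither passed the threshold. Without control library 62 the labelled day 1 value was 1.91 and passed it, and without DKO library 79 it was 0.61. Without control library m1091 the labelled day 7 value was 0.13.

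The libraries with the highest Atf3 were also the highest of their groups for 23 immediate early genes such as Egr1 and Fos, which are transcribed within minutes of many stimuli. DKO library 79 had the highest Atf3 and the highest summed level of these genes, 2952 CPM against 982 to 1747 in the other labelled day 1 DKO libraries. Control library 62, with the highest Atf3 of its group, had 1766 CPM against 847 to 1682 in the other controls, and DKO library m1067 had 1247 CPM against 584 to 888. The order was not kept lower down: DKO library 69 had 1622 CPM of these genes with the lowest Atf3 of its group, 29.0 CPM, and control library 25 had 1682 CPM with 24.2 CPM of Atf3. With the mean of these genes as a covariate the log2 difference of Atf3 was 0.53 at labelled day 1 and -0.90 at labelled day 7, and neither passed the threshold.

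**Figure D1:**
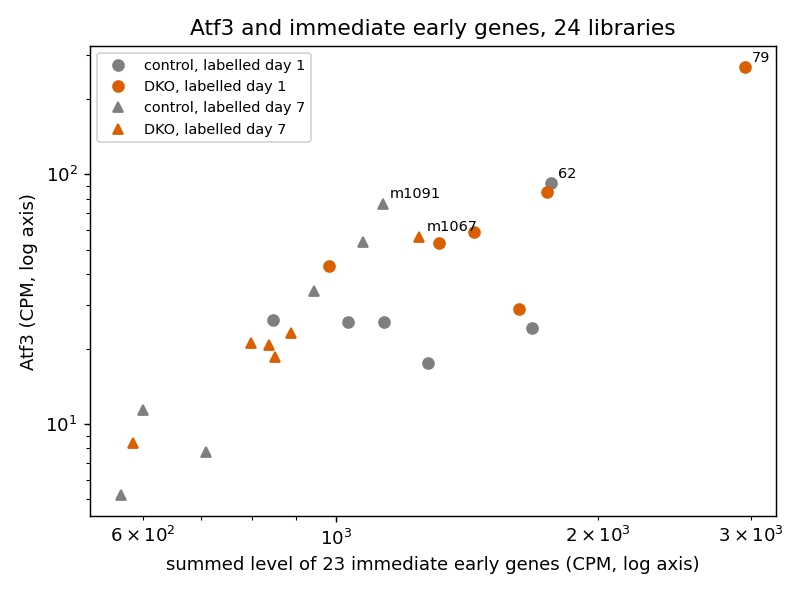
Atf3 in CPM (vertical log axis) against the summed CPM of 23 immediate early genes (horizontal log axis) in 24 libraries, circles for labelled day 1, triangles for labelled day 7, grey for control and orange for DKO. Library 79 stands at the upper right with 268 CPM of Atf3 and 2952 CPM of early genes, and libraries of both genotypes share the same range.

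Cebpb and Jdp2 had low levels, and Cebpb a wide spread. Cebpb, a bZIP factor that can dimerize with both ATF4 and CHOP, ranged from 0.27 to 1.90 CPM in labelled day 1 controls and from 0.46 to 1.62 in DKO libraries. In the labelled day 7 groups it ranged from 0.04 to 0.62 CPM in controls and from 0.32 to 0.67 in DKO libraries, from 46 and 78 reads summed over 6 libraries. Its log2 difference was -0.17 ± 0.44 at labelled day 1 and 0.66 ± 0.40 at labelled day 7, with overlapping groups at both ages. In GENCODE M21, 60.4% of the exonic bases of Cebpb lie inside Tmem189 on the opposite strand, introns included, and 20.7% lie in its exons. The kit does not mark strand, so the Cebpb counts may be partial. Jdp2, which encodes a JUN-dimerizing repressor, ranged from 2.11 to 4.75 CPM in labelled day 1 controls, from 2.46 to 4.27 in DKO libraries, from 2.30 to 4.52 in labelled day 7 controls and from 3.54 to 6.66 in DKO libraries. All 4 Jdp2 ranges overlapped, and its log2 difference was 0.03 ± 0.20 and 0.29 ± 0.18.

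**Figure D2:**
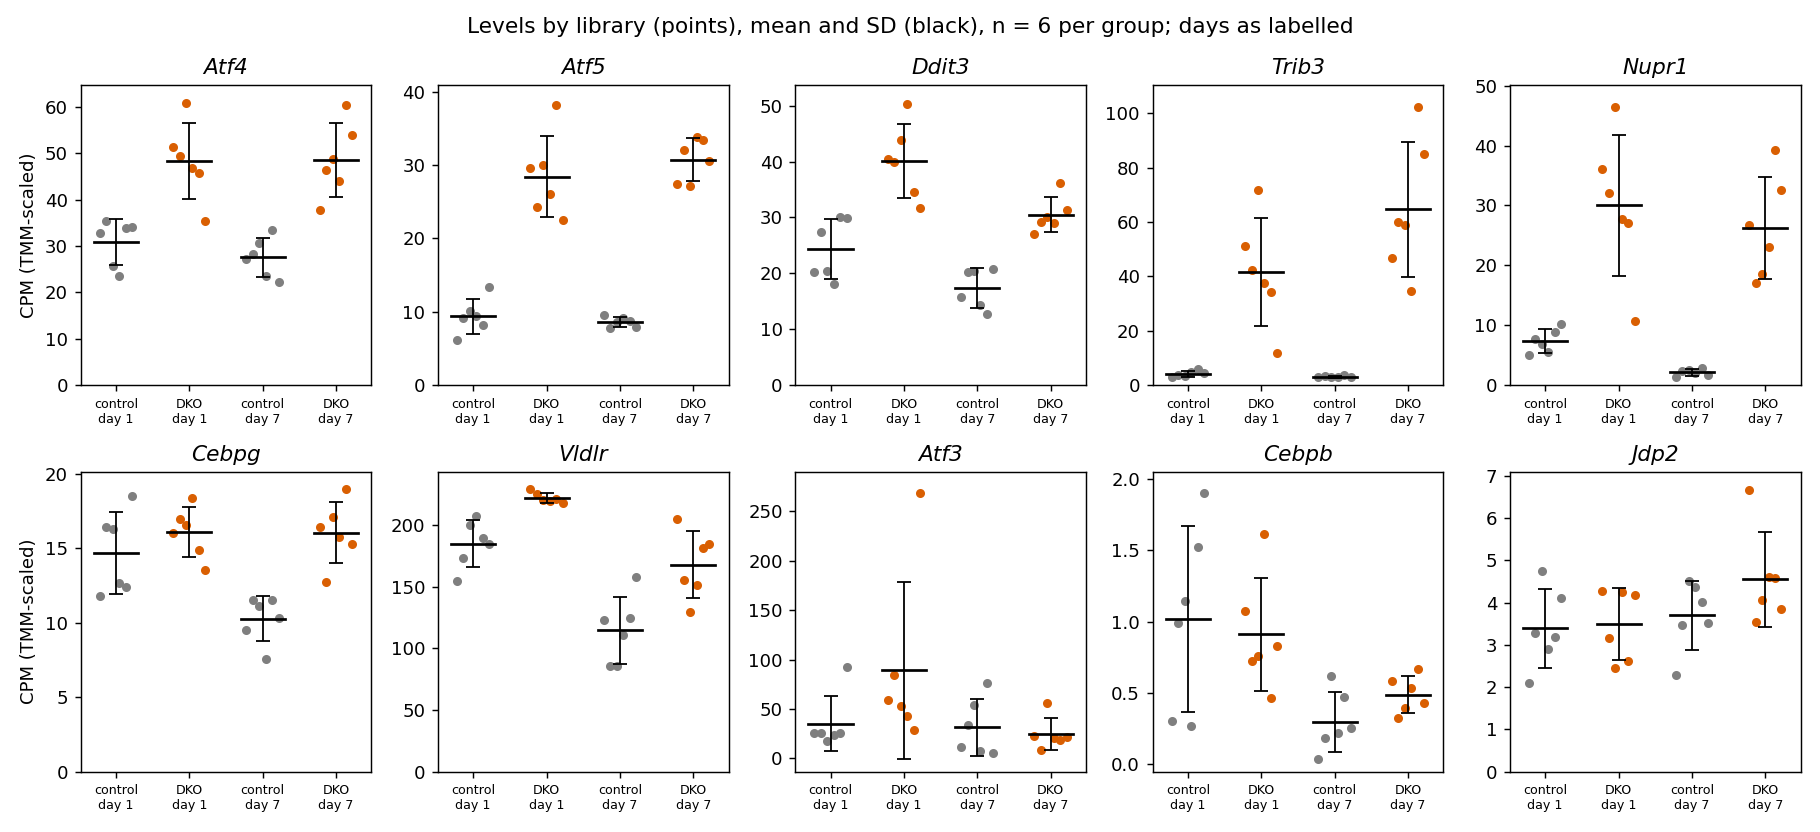
Level of each member in CPM (vertical axes, scaled separately, linear) in the 6 libraries of each group, with the mean (bar) and SD (whisker). Atf4, Atf5, Ddit3, Trib3 and Nupr1 lie higher in all DKO libraries at both labelled ages, Cebpg is separated at labelled day 7 and Vldlr at labelled day 1, and Atf3, Cebpb and Jdp2 overlap.

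Counted over the members, 6 of 10 had a higher level in DKO libraries at an adjusted p under 0.05 (edgeR's quasi-likelihood test) at labelled day 1, beside 9.81% of all 17352 genes tested, and 0 were lower, beside 7.79%. The labelled day 7 contrast again had 6 of 10 higher, beside 0.686% of genes, and 0 lower, beside 0.334%. At each age 6 members lay higher in all 6 DKO libraries than in all 6 controls, beside 6.30% of genes at labelled day 1 and 1.11% at labelled day 7. Because these contrasts guided the choice of members, nothing is read from the counts. Atf4, Atf5, Ddit3, Trib3 and Nupr1 were in both sets of 6, with Vldlr as the sixth at labelled day 1 and Cebpg as the sixth at labelled day 7. The 4 members outside the threshold were Atf3, Cebpb, Jdp2 and Cebpg at labelled day 1 and Atf3, Cebpb, Jdp2 and Vldlr at labelled day 7. The median log2 difference of the 10 was 0.68 and 0.73, beside -0.02 and -0.01 for all genes.

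Some heart muscle markers also differed by genotype at labelled day 1, where 9.81% of all genes were higher and 7.79% lower in DKO libraries. At labelled day 1, 4 of 10 ventricular cardiomyocyte markers were lower in DKO libraries (Ryr2, Tnnt2, Atp2a2 and Ttn) and Mybpc3 was higher, with summed levels of 56010 to 69050 CPM in controls and 54930 to 59630 in DKO libraries. Of 9 atrial markers, Myl7 and Sln were lower and Nppa and Fgf12 higher, with Myl7 at 1.34 to 304 CPM in controls and 0.56 to 17.3 in DKO libraries, and a median log2 difference of -0.84. For labelled day 7 edgeR called 0 of either list, with 4 cardiomyocyte and 5 atrial markers at an unadjusted p under 0.05, and DESeq2 called 2 and 1. For 3 of the 9 atrial markers (Myl7, Sln and Dkk3) the log2 difference was more positive at labelled day 7, beside 0.311% of all genes. Mean Myl7 was 119 CPM in controls and 5.63 in DKO libraries at labelled day 1. At labelled day 7 it was 145 and 362 CPM, with medians of 136 and 195. The DKO mean there was raised by libraries m1124 and m1128, at 1043 and 548 CPM. The direction of the means turned, but edgeR did not call Myl7 at labelled day 7. A covariate for labelled day 1 was made from the mean of 4 atrial genes, Myl7, Sln, Myl4 and Bmp10. It left out Nppa and Fgf12, which were higher in DKO libraries, so it does not stand for all 9 atrial markers. With it the log2 differences were 0.78 for Atf4, 1.42 for Atf5, 0.76 for Ddit3, 3.60 for Trib3 and 2.04 for Nupr1. All 5 were still past the threshold, and Vldlr no longer passed it.

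**Figure D3:**
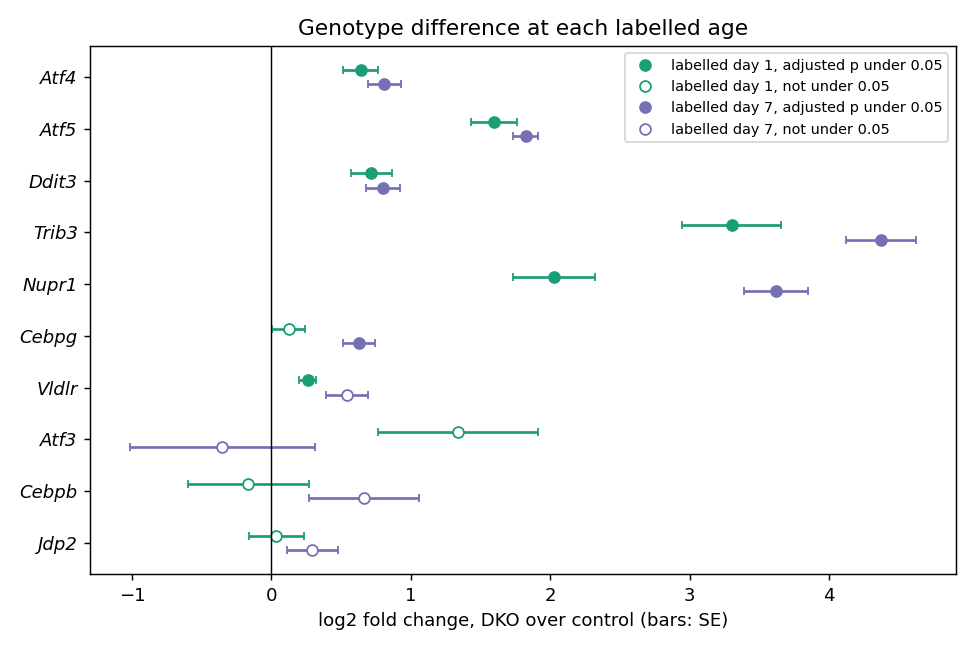
Log2 fold change of DKO over control (horizontal axis, bars for SE) for each member at labelled day 1 (green) and labelled day 7 (purple), filled where the adjusted p was under 0.05. Trib3, Nupr1 and Atf5 have the largest values at both ages, and the SE bars of Atf3 are the widest.

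The genotype effects at the 2 labelled ages were also set against each other in 1 fit of all 24 libraries. This difference is computed from the 2 contrasts that guided the choice of members, so it too is a description and nothing is read from its counts. For Nupr1 the effect was larger at labelled day 7 by 1.60 ± 0.39 (SE) on the log2 scale, and Nupr1 was the 1 member of 10 past the edgeR threshold, beside 0.311% of all genes. In the other direction 0 of 10 passed, beside 0.766% of genes; no member had an unadjusted p under 0.05 in that direction, and DESeq2 and limma also called none. Nupr1 was close to the threshold: it no longer passed with limma-voom (1.63), with no filter on low counts (1.60), with protein-coding genes alone (1.58) or in 19 of 24 fits that left out 1 library, where the difference stayed between 1.42 and 1.76. Trib3 had a difference of 1.08 ± 0.44 and Cebpg one of 0.51 ± 0.17. For Atf4 it was 0.17 ± 0.18, for Atf5 0.23 ± 0.19, for Ddit3 0.09 ± 0.20 and for Vldlr 0.29 ± 0.17. Atf3, Cebpb and Jdp2 stood at -1.69 ± 0.92, 0.83 ± 0.64 and 0.26 ± 0.28.

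Among controls, 5 of 10 members were lower at labelled day 7 than at labelled day 1 in the edgeR fit of all 24 libraries, beside 25.6% of all genes. Higher at labelled day 7 were 0 of 10, beside 27.4% of genes, with none at an unadjusted p under 0.05 and none called by DESeq2 or limma. Nupr1 fell by 1.79 ± 0.30 on the log2 scale (edgeR, adjusted p = 2.51e-05), Cebpb by 1.74 ± 0.46 (adjusted p = 0.00274) and Vldlr by 0.69 ± 0.12 (adjusted p = 3.12e-05). Cebpg fell by 0.51 ± 0.12 (edgeR, adjusted p = 0.000864) and Ddit3 by 0.48 ± 0.14 (adjusted p = 0.00537). These 5 calls held in all 24 fits that left out 1 library. Atf4 differed by -0.17 ± 0.13 (adjusted p = 0.293), Atf5 by -0.12 ± 0.14 (adjusted p = 0.48) and Trib3 by -0.44 ± 0.34 (adjusted p = 0.288), and a fit of the control libraries alone called Trib3 at the same size (adjusted p = 0.0371). In this comparison 10 of 10 fibroblast markers, 9 of 10 endothelial markers, 9 of 10 macrophage markers and 12 of 22 immediate early genes were also lower at labelled day 7. Other lists did not fall in this way. Of 44 other known targets of ATF4 or CHOP tested, 18 were higher and 5 lower at labelled day 7, with a median log2 difference of 0.21. Of 9 atrial markers 3 were higher and 1 lower. The summed level of the fibroblast markers was 5487 to 7108 CPM in labelled day 1 controls and 2373 to 4369 in labelled day 7 controls, and that of the macrophage markers was 125 to 171 and 84.8 to 103 CPM. Depth and the number of libraries with Y-linked transcripts differed between the ages as well, and the part of any of these in the lower levels was not tested.

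In the DKO libraries the same contrast gave values near 0 for Nupr1 and Cebpg. Nupr1 differed by -0.20 ± 0.25 between the labelled ages in DKO libraries and Cebpg by -0.00 ± 0.12, with library 79 included. At labelled day 7 Vldlr fell by 0.40 ± 0.12 and Ddit3 fell by 0.40 ± 0.14 in DKO libraries, beside 0.69 and 0.48 in controls. Atf4 and Atf5 differed by 0.01 ± 0.13 and 0.11 ± 0.13 between ages in DKO libraries, and Trib3 by 0.64 ± 0.28. Atf3 had the largest change and fell by 1.85 ± 0.67 at labelled day 7 (edgeR, adjusted p = 0.0242), in a contrast that includes library 79 with its 268 CPM, while its value in controls was -0.16 ± 0.65. Cebpb and Jdp2 differed by -0.91 ± 0.44 and 0.38 ± 0.20 in DKO libraries and did not pass the threshold. The larger Nupr1 difference at labelled day 7 thus went with a lower control level, 2.11 ± 0.53 against 7.35 ± 1.97 CPM. DKO levels overlapped, at 26.2 ± 8.53 against 29.99 ± 11.8 CPM (SD, n = 6 each). Without library 79 the labelled day 1 DKO level of Nupr1 was 33.9 ± 7.92 CPM (SD). These contrasts share libraries with the interaction and are no separate support for it.

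DKO library 79 stood apart from the other 5 DKO libraries labelled day 1. It had the lowest level of its group for 7 of 10 members (Atf4, Atf5, Ddit3, Cebpg, Trib3, Nupr1 and Vldlr) and the highest for Atf3. Its Trib3 was 2.81 times the control mean, against 8.20 to 17.2 times in the other 5, and its Nupr1 was 1.45 times the control mean, against 3.67 to 6.31 times. It also had the highest Rhot1 of its group, 137 CPM against 107 to 120. Without it the log2 differences at labelled day 1 were 0.72 for Atf4, 1.65 for Atf5, 0.78 for Ddit3, 3.50 for Trib3 and 2.20 for Nupr1, with the same calls for all 10 members. At labelled day 7 library m1124 had the highest level of its group for 6 members: Atf4, Ddit3, Cebpb, Cebpg, Trib3 and Nupr1. It and library m1128, the second highest for Atf4, Trib3 and Nupr1, are the 2 DKO libraries of that age with Y-linked transcripts, and their summed atrial markers were 2963 and 2020 CPM against 792 to 964 in the other 4. With Y-linked transcripts as a covariate the labelled day 7 log2 differences were 0.80 for Atf4, 4.32 for Trib3 and 3.59 for Nupr1. Such transcripts were in 2 of 6 libraries of each genotype at that age, so this covariate could hardly move a genotype difference. No conclusion is drawn from it.

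Within the DKO groups, libraries with more Atf4 had more Trib3, Nupr1 and Ddit3. This was measured over 12 DKO libraries as the correlation of log2 CPM after the mean of each group was removed, with a two-sided permutation test within labelled age (100000 permutations) adjusted over 9 members. Trib3 had r = 0.92 and rho = 0.97 (permutation test, adjusted p = 0.00243 for r and 0.00027 for rho). Nupr1 had r = 0.79 and rho = 0.81 (permutation test, adjusted p = 0.0303 and 0.0113), and Ddit3 had r = 0.74 and rho = 0.83 (adjusted p = 0.0303 and 0.0113). Within labelled day 1 the values of r were 0.98 for Trib3, 0.98 for Nupr1 and 0.64 for Ddit3, and within labelled day 7 they were 0.84, 0.51 and 0.95. Without libraries 35 and 79, which lay farthest from the median of Atf4, r was 0.85 for Trib3, 0.60 for Ddit3 and 0.54 for Nupr1, so the relation of Nupr1 rested in part on them. The other 6 members did not pass: Atf5 had r = 0.40 and Cebpg 0.48, Vldlr and Cebpb had -0.02 and 0.03, and Atf3 and Jdp2 had -0.36 and -0.55 (permutation test, adjusted p from 0.193 to 0.957). All values share the scaling factor of their library. The share of all genes with as strong a correlation was not counted, so the relation cannot be called particular to these members. The non-members most like Atf4, given below, had r of 0.80 to 0.84 over all 24 libraries.

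**Figure D4:**
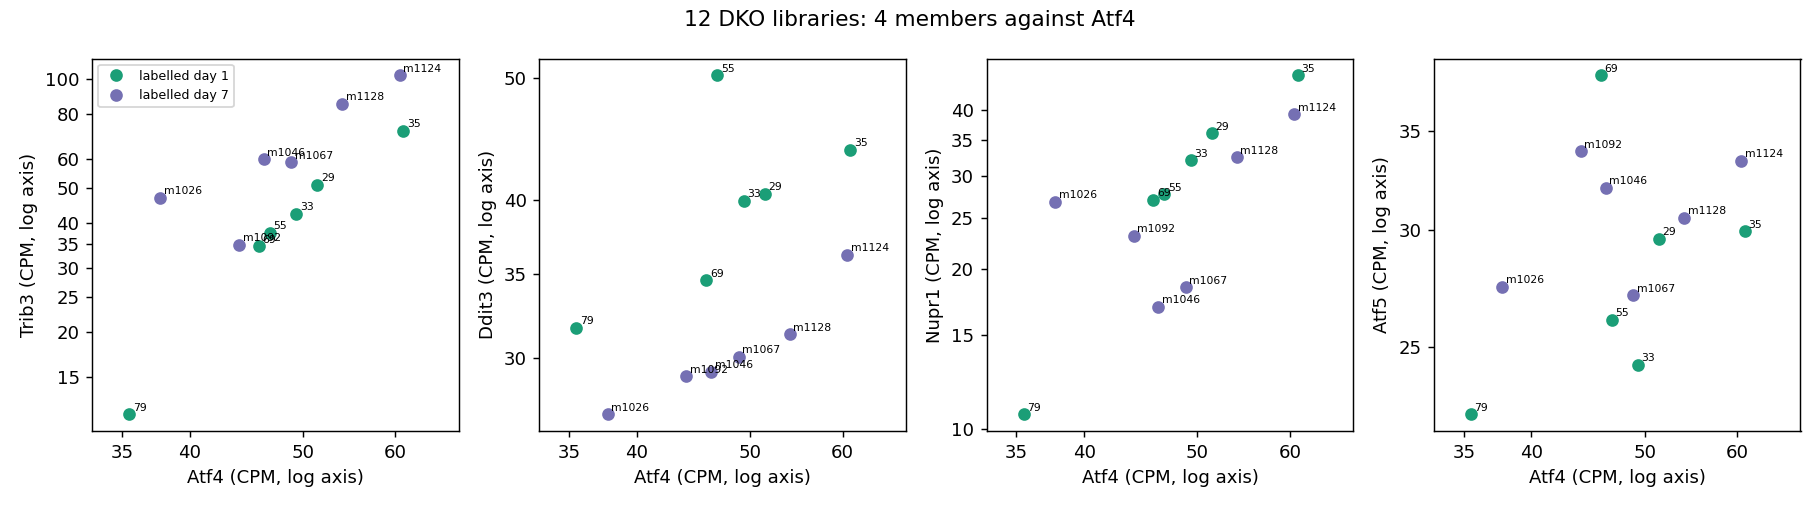
Trib3, Ddit3, Nupr1 and Atf5 (vertical log axes, CPM) against Atf4 (horizontal log axis, CPM) in the 12 DKO libraries, green for labelled day 1 and purple for labelled day 7, with library names. Trib3 rises with Atf4 from 11.8 CPM in library 79 to 71.9 in library 35 and 102 in library m1124, while Atf5 shows no such order.

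Over all 24 libraries, again after removal of group means, the protein-coding non-members most like Atf4 among 14407 ranked were Gtpbp4 (r = 0.84, rho = 0.85), Eif3g (r = 0.82, rho = 0.75) and Wdr74 (r = 0.80, rho = 0.81). Those most like Ddit3 were Ttc39b (r = 0.79, rho = 0.77), Chac1 (r = 0.78, rho = 0.80) and Cyp26b1 (r = 0.76, rho = 0.76). Those most like Trib3 were Derl1 (r = 0.84, rho = 0.70), Nars (r = 0.80, rho = 0.62) and Cyb5r1 (r = 0.79, rho = 0.49). Of these 9, Chac1, a glutathione-degrading enzyme gene, and Nars, a cytosolic asparaginyl-tRNA synthetase gene, are known targets of ATF4 or CHOP on the list used here. The values are a description, since the highest of many correlations are high by selection.

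Other known targets of ATF4 or CHOP mostly moved with the members. Of 44 tested, 28 were higher and 2 lower in DKO libraries at labelled day 1, and 24 were higher and 0 lower at labelled day 7 (edgeR, adjusted p under 0.05), beside 9.81% and 7.79% of all genes at labelled day 1 and 0.686% and 0.334% at labelled day 7. Their median log2 difference was 0.57 and 0.66, beside -0.02 and -0.01 for all genes. The 4 with the largest differences were Fgf21, a secreted metabolic hormone, Slc7a3, a cationic amino acid transporter, Soat2, a sterol acyltransferase, and Asns, asparagine synthetase. Asns rose from 7.39 ± 1.09 to 102 ± 42.2 CPM at labelled day 1 and from 12.9 ± 2.78 to 143 ± 21.01 CPM at labelled day 7 (SD, n = 6 each). Slc7a3 rose by 5.56 and 6.02 and Soat2 by 4.51 and 3.50 on the log2 scale. Fgf21 had 3 reads in all 6 controls against 589 in the DKO libraries at labelled day 1, and 2 against 453 at labelled day 7. The 2 that fell at labelled day 1 were Bcl2l11, a pro-apoptotic BCL2 family gene, by 1.01 ± 0.14, and Dnajc3, a chaperone gene of the endoplasmic reticulum, by 0.21 ± 0.07. These genes were listed with earlier results of these data known.

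Relatives of the members were read against the same shares of all genes, 9.81% higher and 7.79% lower at labelled day 1 and 0.686% and 0.334% at labelled day 7. Of 42 other bZIP factors tested, 2 were higher and 3 lower at labelled day 1 and 1 was higher and 0 lower at labelled day 7. Maff rose by 0.50 ± 0.15 and Batf2 by 0.46 ± 0.10 at labelled day 1, where Hlf, a circadian PAR-domain factor, fell by 0.98 ± 0.10, Maf by 0.32 ± 0.10 and Creb1 by 0.22 ± 0.06. Nfe2l1, a regulator of proteasome genes, rose by 0.29 ± 0.05 at labelled day 7. Nfil3, at 0.67 ± 0.23 and 0.66 ± 0.22, and Fos, at 0.47 ± 0.61 and 0.42 ± 0.38, did not pass the threshold. Of 13 paralogs of Trib3, Nupr1 and Vldlr, 1 was higher and 3 lower at labelled day 1 and 0 higher and 1 lower at labelled day 7. Trib2, another pseudokinase of the Tribbles family, fell by 0.32 ± 0.10 and 0.33 ± 0.07, opposite in sign to Trib3. Lrp4 fell by 0.40 ± 0.10 and Lrp6 by 0.30 ± 0.06 at labelled day 1, where Lrp1b rose by 0.28 ± 0.09, while Lrp8, the closest relative of Vldlr, stood at 0.38 ± 0.22 and 1.65 ± 0.53 without passing the threshold.

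Genes that act before ATF4, such as the eIF2alpha kinases and the eIF2B subunits, gave 0 calls of 17 tested at either age by edgeR, DESeq2 or limma. In edgeR 9.81% of all genes were higher and 7.79% lower at labelled day 1, and 0.686% and 0.334% at labelled day 7. With so few genes called at labelled day 7, 0 of 17 tells little there. An unadjusted p under 0.05 in edgeR was found for 2 of the 17 at labelled day 1 and 3 at labelled day 7. Their 4 largest differences were those of Eif2b5 (0.19 ± 0.07 and 0.20 ± 0.31), Eif2ak3 (0.12 ± 0.10 and 0.25 ± 0.19), Ppp1r15b (0.14 ± 0.07 and 0.22 ± 0.09) and Eif2b3 (0.08 ± 0.07 and 0.25 ± 0.08). These kinases are controlled by their activity, which mRNA levels do not show. Of 18 genes of the ATF6 and XBP1 arm of the unfolded protein response, 1 was higher and 4 lower at labelled day 1, beside 9.81% and 7.79% of all genes. Ern1, the gene of the sensor IRE1alpha, rose by 0.34 ± 0.08, and the chaperone and folding genes Hspa5, Hsp90b1, Pdia6 and Manf fell by 0.17, 0.19, 0.21 and 0.27. At labelled day 7 edgeR, DESeq2 and limma called 0 of the 18, with 1 at an unadjusted p under 0.05 in edgeR. Of 22 immediate early genes tested, 2 were higher and 1 lower at labelled day 1, beside 9.81% and 7.79% of all genes. At labelled day 7, 1 was higher and 0 lower, beside 0.686% and 0.334%. Egr2 and Myc rose at labelled day 1, by 1.34 ± 0.40 and 1.43 ± 0.22, Ier3 fell by 0.34 ± 0.11, and Egr1 rose by 0.76 ± 0.16 at labelled day 7. No difference between these lists was tested.

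**Figure D5:**
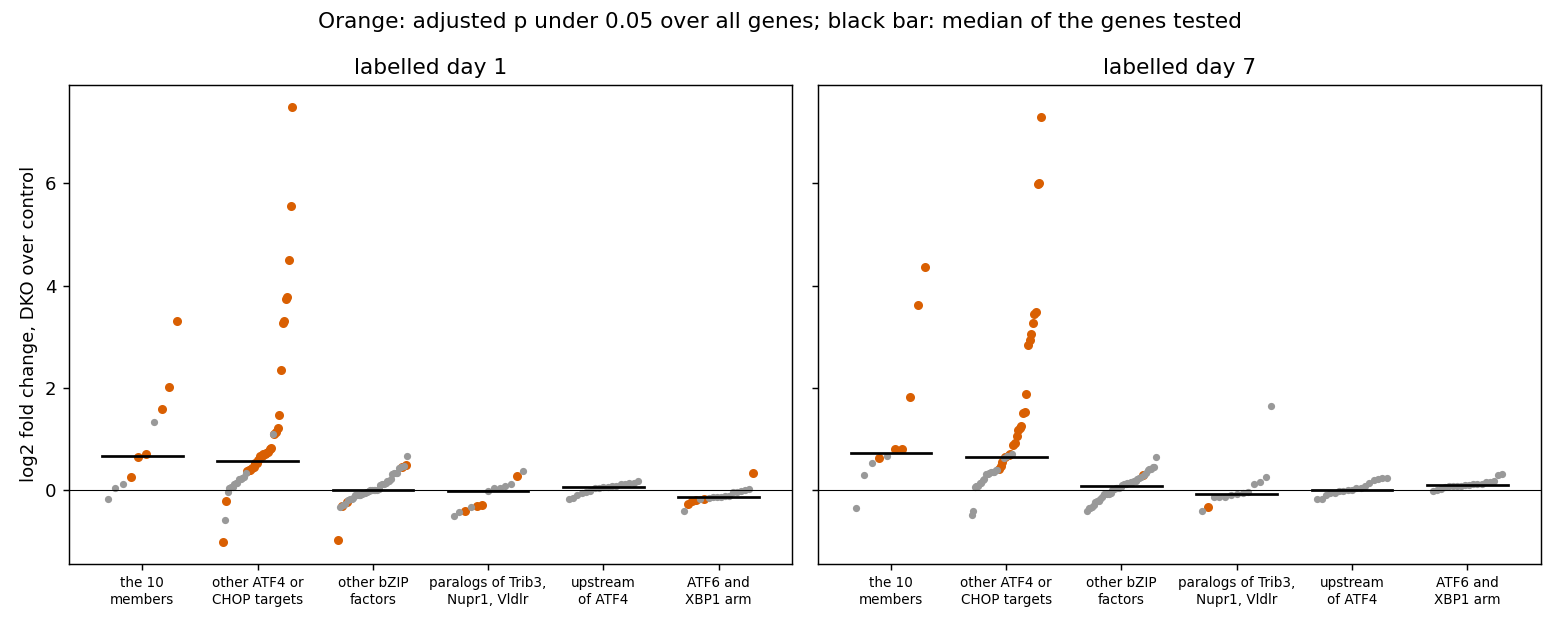
Log2 fold change of DKO over control (vertical axis) for each gene tested in 6 lists at labelled day 1 (left) and labelled day 7 (right), orange where the adjusted p was under 0.05, with the median of each list as a black bar. The members and the other ATF4 or CHOP targets have medians of 0.57 to 0.73, and the other 4 lists have medians between -0.13 and 0.10.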

How the data were processed

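The authors deposited a table of unnormalized gene counts, which holds whole numbers. The submitters' processing notes name bcl2fastq, STAR 2.4.2a and build GRCm39; the counting step and its treatment of overlapping genes are not given in the sources used here. Per the labels' protocols, cDNA libraries were made with a low-input kit that does not mark strand. Counts were analysed with edgeR 4.0.16 in R 4.3.3 (TMM scaling, robust quasi-likelihood test, filterByExpr with a minimum count of 10, Benjamini-Hochberg adjustment over all genes tested, threshold 0.05). The filter kept 17352 of 39396 genes. Genotype was fitted within each labelled age, and the age contrasts and the interaction in all 24 libraries. CPM were computed with TMM factors, and correlations used log2 CPM with a prior count of 2 and permutation tests in SciPy 1.17.1. DESeq2 1.42.0, limma 3.58.1, upper-quartile scaling, other filters, covariates and the removal of each library were alternatives. The fits were tested on simulated data with known changes.

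The members and lists were chosen with earlier results of these data known. Named genes are all 10 members, the 4 tested genes of each list with the largest mean absolute log2 change over the ages, the 3 genes most like Atf4, Ddit3 and Trib3, and the targeted genes. Genes outside this rule, named because a count was 5 or fewer, were chosen after their values were seen. Library names were not shared between groups, so samples were not paired. Promoters and chromosomes came from RefSeq (GRCm38.p6) and GENCODE M21 and were matched by symbol, for all 10 members.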

Additional observations from a re-analysis of the deposited data

Results flagged for a closer look

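In 3 of the 4 groups 1 library had an Atf3 level far from the other 5 by Dixon's test. These were control library 62 at labelled day 1 with 92.3 CPM, DKO library 79 at labelled day 1 with 268 CPM and DKO library m1067 at labelled day 7 with 56.3 CPM. Jdp2 was flagged in DKO library m1026 at labelled day 7, with 6.66 CPM. In all 40 combinations of a member and a group were tested and 4 were flagged, where chance flags about 1 in 20. The genotype effect on Nupr1 differed between the labelled ages by 1.60 on the log2 scale and passed the threshold of edgeR's interaction test, with the DKO level above the control mean in 6 of 6 libraries at each age. Nupr1 was chosen from the contrasts that this difference is computed from, so the test is not independent of the choice.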

How the results depend on the processing

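The counts of members with a higher level in DKO libraries stayed within 6 to 7 of 10 at each labelled age when each library was left out in turn, and the count of members lower in labelled day 7 controls stayed at 5. The 1 member with a larger effect at labelled day 7 became 0 with limma-voom, without the low-count filter and with protein-coding genes alone, and ranged from 0 to 1 when a library was left out; the cause was not tested. At labelled day 1, Cebpb turned to 0.073 with limma-voom, and Cebpg to -0.045 and Jdp2 to -0.34 with atrial genes as a covariate. At labelled day 7, Atf3 turned to 0.012 with limma-voom. Leaving out 1 library gave ranges that crossed 0 for Cebpb (-0.40 to 0.10) and Jdp2 (-0.071 to 0.16) at labelled day 1 and Atf3 (-0.78 to 0.13) at labelled day 7. In the control age contrast they crossed 0 for Atf3 (-0.64 to 0.41), Atf5 (-0.24 to 0.006) and Jdp2 (-0.007 to 0.24). No paired analysis was possible because the groups share no library names. Upper-quartile scaling turned no sign and no call. Cebpb, with 46 to 238 reads a group, was the member most limited by depth.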

Other observations

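Of the 44 other known targets of ATF4 or CHOP tested, 2 had a genotype effect that was larger at labelled day 7 in edgeR's interaction test, beside 0.311% of all genes. In the other direction 0 were called, beside 0.766% of genes. DESeq2 and limma also called 2. Chac1, which encodes a glutathione-degrading enzyme, stood at 3.88 ± 2.38 CPM in controls and 8.35 ± 1.85 in DKO libraries at labelled day 1, and at 0.17 ± 0.09 and 11.3 ± 3.54 CPM at labelled day 7 (SD, n = 6 each). Its effect differed between the ages by 4.90 ± 0.59 on the log2 scale (edgeR, adjusted p = 0.000178), a size that rests on a very low control level at labelled day 7. Gpt2, a mitochondrial alanine transaminase gene, stood at 38.5 ± 7.92 and 44.8 ± 3.51 CPM at labelled day 1 and at 12.6 ± 1.63 and 26.7 ± 3.41 CPM at labelled day 7, a difference in effect of 0.86 ± 0.16 (edgeR, adjusted p = 0.00918). Between labelled day 1 and day 7 of the controls Chac1 fell by 4.47 and Gpt2 fell by 1.61 on the log2 scale, and Nupr1 fell as well. In DKO libraries Chac1 differed by 0.43 ± 0.31 between the ages and Gpt2 fell by 0.75 ± 0.11. Both genes were singled out after their values were seen.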
